A study of Homo sapiens with 9 samples.

Results

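The comparison described here is the lower of 2 citrinin doses, 10 µM for 72 h, against vehicle (0 µM citrinin for 72 h) in SH-SY5Y cells. SH-SY5Y is an established human neuroblastoma line of sympathetic neuroblast character, grown here in MEM/F12 medium with 15% FBS in both groups. Citrinin is a mycotoxin made by moulds of the genera Penicillium, Aspergillus and Monascus. The members were chosen by the dose in the sample titles, which gave 3 libraries at 10 µM and 3 with vehicle, 6 of the 9 libraries in the series. The other 3 libraries, at 20 µM for 72 h, entered the model and are used only to place the 10 µM values. The composition of the vehicle is not given in the sources used here.

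Cells answer electrophiles and oxidants through NRF2, the transcription factor encoded by NFE2L2. KEAP1 holds NRF2 in the cytosol and presents it to a ubiquitin ligase, and modification of KEAP1 cysteines lets NRF2 accumulate and bind antioxidant response elements with small MAF partners. Its targets make and recycle glutathione and thioredoxin, supply NADPH, reduce quinones, handle heme and iron, and export conjugates. Other stresses have their own programmes, among them p53 for DNA damage, the unfolded protein response for the endoplasmic reticulum and heat shock factors for the cytosol.

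Total RNA was sequenced, and the values are reads counted per gene. Each of the 6 libraries held 15678443 to 19604367 gene reads, with 10.8% to 11.9% of them from mitochondrial genes. Levels are given in CPM, gene reads scaled to library size with edgeR's TMM factors, and 17806 genes passed the filter on low counts. "Rose" and "fell" are used only of genes with a Benjamini-Hochberg adjusted p below 0.05 in edgeR's quasi-likelihood test. The model held the replicate number from the titles as a block. The replicate number accounted for 72.2% of the variance of log2 levels over the 6 libraries and the dose for 9.30%. These shares include spread between libraries, so the 9.30% is no measure of a dose effect and was not tested. Nothing in the labels tells separate cultures from repeat samplings of 1 culture, and p-values measure the spread between these samples only. All 10 markers of sympathetic neuroblasts were detected, with a summed level of 2803 to 3676 CPM in vehicle and 2755 to 3574 CPM at 10 µM. The 34 markers of mesenchymal, substrate-adherent neuroblastoma cells summed to 7749 to 10686 CPM in vehicle. In the wider sympathetic list, INSM1 (9 reads over the 6 libraries) and GFRA3 (26 reads) were too low to test. TH, the tyrosine hydroxylase of catecholamine synthesis, had only 3 reads over the 6 libraries.

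The response to 10 µM was small, and each gene that passed was higher than in vehicle. Of 17806 genes tested, 6 rose (0.0337%) and 0 fell, and the median change of the 6 was 1.297-fold. They included NQO1, TXNRD1, OSGIN1, GCLM and ASPH. The first 4 of these belong to the list of NRF2 targets: a quinone reductase, a thioredoxin reductase, an oxidative stress induced growth inhibitor and the modifier subunit of glutathione synthesis. At an unadjusted p below 0.05 there were 309 genes on the higher side (1.74%) and 331 on the lower side (1.86%), 640 in all (3.59%). Neither side held many more than the other. The 3.59% is below the share that uniform p-values with no effect would give at this threshold. All 6 were higher in 3 of 3 same-numbered pairs, which 11.9% of all tested genes were as well. These calls need the block: without it edgeR called 0 genes (115 at an unadjusted p below 0.05, 0.646%), DESeq2 0 (74, 0.416%) and limma-voom 0 (125, 0.702%). They also need replicate 3, since 0 genes passed in edgeR when its 3 libraries were left out (446 at an unadjusted p below 0.05). NQO1 and TXNRD1 were the 2 calls left without any 1 of the vehicle libraries or without the 10 µM library of replicate 3. Without the 20 µM library of replicate 1 there were 16 calls, and without that of replicate 3 there were 3 (NQO1, TXNRD1 and OSGIN1). NQO1 and TXNRD1 passed in 19 of 23 other ways of processing the counts, OSGIN1 in 15, GCLM in 12 and ASPH in 10, and each of the 6 was higher in all 23.

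NQO1 encodes the NAD(P)H quinone dehydrogenase that reduces quinones to hydroquinones without passing through semiquinones. Its level in vehicle was 88.1, 96.8 and 87.8 CPM in replicates 1 to 3, and at 10 µM it was 116.4, 157.1 and 117.8 CPM. Every 10 µM library was above every vehicle library, and replicate 2 was the highest in both groups. The change was 0.51 ± 0.06 (log2 fold change ± SE, 95% interval 0.40 to 0.62, edgeR adjusted p = 2.47e-05), from a mean of 90.9 ± 5.12 CPM to 130.4 ± 23.2 CPM (SD, n = 3 each). TXNRD1, the cytosolic thioredoxin reductase, was the most abundant of the 6. It stood at 303.2, 401.9 and 351.0 CPM in vehicle and at 405.6, 523.1 and 447.2 CPM at 10 µM. Replicate 2 was again the highest and replicate 1 the lowest in both groups, and the groups did not overlap. The change was 0.38 ± 0.05 (log2, interval 0.29 to 0.48, edgeR adjusted p = 6.25e-05). TXNRD1 overlaps 3 annotated genes that had 964 reads in the 6 libraries, against 42169 for TXNRD1.

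OSGIN1, the oxidative stress induced growth inhibitor, had the largest fold of the 6 and the lowest level. Vehicle libraries held 10.0, 7.71 and 7.51 CPM and 10 µM libraries 15.0, 13.5 and 12.6 CPM, without overlap. Its change was 0.71 ± 0.11 (log2, interval 0.48 to 0.94, edgeR adjusted p = 0.00579).

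GCLM and ASPH rose within pairs while their groups overlapped. GCLM encodes the modifier subunit of glutamate-cysteine ligase, the rate-limiting enzyme of glutathione synthesis. Vehicle libraries held 36.9, 48.0 and 53.8 CPM and 10 µM libraries 45.4, 68.1 and 66.1 CPM, so the 10 µM library of replicate 1 lay below 2 of the vehicle libraries. Compared within replicate numbers GCLM was higher by 0.30, 0.51 and 0.30 on the log2 scale, and the fitted change was 0.37 ± 0.07 (edgeR adjusted p = 0.0322). ASPH (ENSG00000198363, GRCh38, 61500556 to 61714640 on chromosome 8, minus strand), the aspartate beta-hydroxylase of the endoplasmic reticulum, was measured at 167, 198 and 209 CPM in vehicle and 205, 241 and 247 CPM at 10 µM. It was higher by 0.30, 0.28 and 0.24 within the pairs, with a fitted log2 change of 0.27 ± 0.05 (edgeR adjusted p = 0.0453), the smallest of the 6 and the nearest to the threshold.

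**Figure D1:**
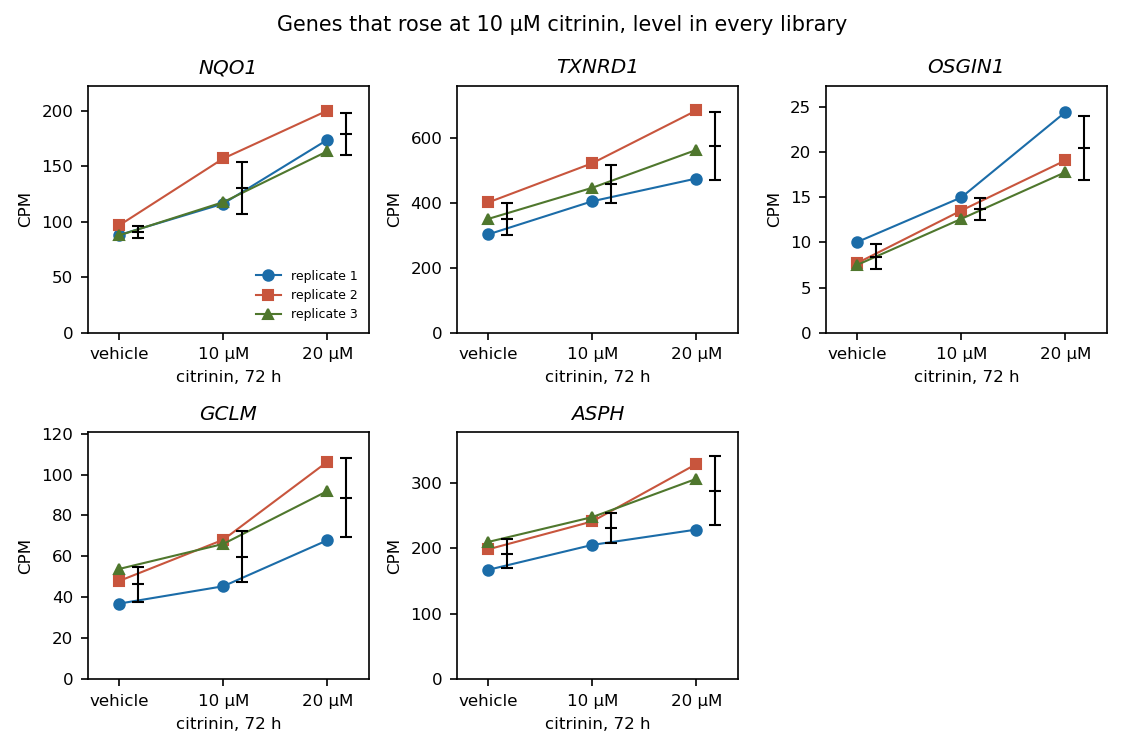
Level (CPM, linear axis from 0) of NQO1, TXNRD1, OSGIN1, GCLM and ASPH, which rose at 10 µM, by dose; lines join libraries with the same replicate number and black bars give the mean ± SD of 3 libraries. Each line climbs from vehicle to 10 µM and from 10 µM to 20 µM, while for GCLM and ASPH the 10 µM library of replicate 1 lies among the vehicle libraries.

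NQO1, TXNRD1, OSGIN1, GCLM and ASPH were higher again at 20 µM. Against 10 µM, the log2 difference at 20 µM was 0.47 ± 0.05 for NQO1 (edgeR adjusted p = 3.99e-05), 0.32 ± 0.05 for TXNRD1 (0.000337), 0.57 ± 0.10 for OSGIN1 (0.00381), 0.57 ± 0.06 for GCLM (3.99e-05) and 0.31 ± 0.05 for ASPH (0.00221). Between these doses 32 genes were higher (0.18%) and 47 lower (0.264%) of those tested. Against vehicle, the difference at 20 µM was 0.98 for NQO1, 0.70 for TXNRD1, 1.28 for OSGIN1, 0.93 for GCLM and 0.58 for ASPH. The 20 µM comparisons share the 10 µM or the vehicle libraries with the comparison that named these genes, so their values are set side by side and do not add independent support. Against vehicle, 20 µM gave 393 genes past the same threshold (2.21%), 151 higher (0.848%) and 242 lower (1.36%).

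The promoters of these genes show where the antioxidant response element consensus lies near a start site. The core TGACNNNGC was searched on both strands in windows of 300 bases, from 250 before to 50 after each RefSeq transcription start (GRCh38.p14). It occurred in 4687 of 35116 windows (13.3%), in 14.4% of the windows of tested genes and in 20 of 62 windows of the NRF2 target list (32.3%). The called genes GCLM, TXNRD1, NQO1 and OSGIN1 had 5 windows in the table, and 3 of the 5 held a match. Those 3 windows are shown because they place the match in a gene that rose; capitals mark each match, and positions count from the start site. GCLM on the minus strand of chromosome 1 (chr1:93909381-93909680) held 1 match at -34, read on the other strand. TXNRD1 on the plus strand of chromosome 12 has a window at its upstream start (chr12:104215529-104215828), with matches at -99 and -8, and one at a downstream start (chr12:104286782-104287081), with a match at -102. The matches at -8 and -102 are likewise read on the other strand.
GCLM: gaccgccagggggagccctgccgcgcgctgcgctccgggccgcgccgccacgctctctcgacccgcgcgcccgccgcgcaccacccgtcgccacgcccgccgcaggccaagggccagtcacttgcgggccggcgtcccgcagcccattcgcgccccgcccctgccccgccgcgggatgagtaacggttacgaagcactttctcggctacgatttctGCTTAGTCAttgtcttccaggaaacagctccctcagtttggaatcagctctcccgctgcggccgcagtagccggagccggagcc
TXNRD1 upstream start: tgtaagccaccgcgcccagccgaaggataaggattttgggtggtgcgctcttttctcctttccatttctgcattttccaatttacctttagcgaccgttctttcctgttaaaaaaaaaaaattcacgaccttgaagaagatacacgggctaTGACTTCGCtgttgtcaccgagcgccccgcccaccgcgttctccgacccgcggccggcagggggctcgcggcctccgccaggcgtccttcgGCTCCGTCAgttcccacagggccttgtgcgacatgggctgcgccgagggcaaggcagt
TXNRD1 downstream start: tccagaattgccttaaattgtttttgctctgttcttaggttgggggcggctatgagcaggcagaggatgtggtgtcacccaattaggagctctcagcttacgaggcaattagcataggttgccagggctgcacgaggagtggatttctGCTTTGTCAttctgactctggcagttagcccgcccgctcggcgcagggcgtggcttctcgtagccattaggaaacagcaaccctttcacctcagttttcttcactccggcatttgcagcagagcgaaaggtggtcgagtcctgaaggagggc
The windows of NQO1 (chr16:69726511-69726810, minus strand) and OSGIN1 (chr16:83952990-83953289, plus strand) did not hold these letters. Each of these windows lies inside the annotated span of its gene given below. Bases upstream of the outer end of that span were not searched for these genes. A match is a string of bases and was not tested for binding. The genes themselves lie on GRCh38 at 93885205 to 93909456 on chromosome 1 (GCLM, ENSG00000023909, minus strand), 104215779 to 104350305 on chromosome 12 (TXNRD1, ENSG00000198431, plus strand), 69706996 to 69726951 on chromosome 16 (NQO1, ENSG00000181019, minus strand) and 83948282 to 83966332 on chromosome 16 (OSGIN1, ENSG00000140961, plus strand).

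Across the NRF2 target list as a whole, most members had a positive fitted difference at 10 µM, and most did not pass. The list held 57 genes, of which 52 were tested, 5 rose (9.62%, against 0.0337% of all tested genes) and 0 fell. Another 23 (44.2%, against 44.3%) were shown to change by under 1.2-fold. That phrase is used where the fitted change was inside a 1.2-fold margin on both sides. It rests on 2 one-sided tests from the same edgeR fit (adjusted p below 0.05). At 10 CPM or more, these were 23 of the list's 42 tested members (54.8%), against 75.1% of all tested genes at that level. The list's median log2 change was 0.11, beside -0.00 over all tested genes. Of the 52, 45 had a positive difference (86.5%, against 49.1%), 28 were higher in 3 of 3 pairs (53.8%, against 11.9% of all tested genes), and 11 were higher without overlap between groups (21.2%, against 2.06%), while 1, AKR1C2, was lower without overlap (against 1.94%). At an unadjusted p below 0.05, 21 were higher (40.4%, against 1.74%) and 0 lower. The list was set with earlier results of these libraries known, so these shares describe it and are no independent evidence of its direction. The list's median was 0.06, 0.23 and 0.13 in pairs 1, 2 and 3. In pair 2, lists with no call were also higher: cytosolic ribosomal proteins by a median of 0.17 (pair 1 -0.04, pair 3 -0.01) and nuclear-encoded respiratory chain subunits by 0.21 (pair 1 -0.04, pair 3 0.00). The part of replicate 2 in the list's median was measured by leaving out its 10 µM library, which gave a median of 0.09 and 5 called members, SLC7A11 among them.

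The glutathione genes of the list include those of cystine import, synthesis and recycling. Of 12 tested, GCLM rose, and 7 were shown to change by under 1.2-fold. GCLC, the catalytic partner of GCLM, was among the 7, with a log2 change of 0.06 ± 0.06 at 47.3 CPM in vehicle, as were GSS (glutathione synthetase), SLC3A2 (the heavy chain of the cystine transporter) and the transferases GSTM2, GSTM3, GSTA4 and MGST1. SLC7A11, the cystine-importing light chain, was 7.47, 8.51 and 7.80 CPM in vehicle and 10.6, 11.5 and 11.9 CPM at 10 µM. Its groups did not overlap, but the change of 0.53 ± 0.16 did not pass (edgeR adjusted p = 0.9997). At 20 µM SLC7A11 reached 16.1, 33.7 and 22.8 CPM, which was higher than at 10 µM (log2 1.05 ± 0.14, edgeR adjusted p = 0.000517). GSR, glutathione reductase, which was picked for mention after its values were seen, was 77.1, 73.7 and 83.5 CPM against 89.6, 95.1 and 91.7 CPM, without overlap (0.24 ± 0.06, edgeR adjusted p = 0.266).

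In the thioredoxin group, TXNRD1 rose and the other 5 tested genes did not pass. TXN2 (mitochondrial thioredoxin) and PRDX6 were shown to change by under 1.2-fold. SRXN1, which repairs overoxidised peroxiredoxins, was near the detection limit, at 0.876, 0.567 and 0.235 CPM in vehicle and 1.096, 1.55 and 0.562 CPM at 10 µM. Its log2 change of 0.93 ± 0.43 had an interval from 0.03 to 1.82. TXN (0.21 ± 0.06) and PRDX1 (0.23 ± 0.08), also chosen after their values were seen, were highest in the 10 µM library of replicate 2, at 155.7 and 274.8 CPM.

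Among NADPH-supplying enzymes, PGD, the phosphogluconate dehydrogenase, was shown to change by under 1.2-fold (0.11 ± 0.05), and so were TALDO1, ME1 and IDH1. TKT, the transketolase of the pentose phosphate pathway, was 286.9, 261.1 and 250.5 CPM in vehicle and 320.9, 312.3 and 291.1 CPM at 10 µM, and did not pass (0.21 ± 0.05, edgeR adjusted p = 0.166); it too was chosen after its values were seen.

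Among reductases and other detoxifying enzymes, NQO1 and OSGIN1 rose of 15 tested. The aldo-keto reductase AKR1C3 was 21.8, 20.98 and 19.8 CPM in vehicle and 26.2, 27.5 and 25.8 CPM at 10 µM, apart in every library but short of the threshold (0.35 ± 0.09, edgeR adjusted p = 0.379). Its relative AKR1C1 showed 0.39 ± 0.14, and AKR1C2 a log2 difference of -0.27, the lowest of the list. Reads that match several genes were not counted, which leaves the values within the AKR1C family uncertain. AKR1B10 averaged 0.640 CPM in vehicle and 0.938 CPM at 10 µM, with an interval of its log2 change from -0.36 to 1.38. AKR1B1 (0.05 ± 0.05), UGDH, ALDH3A2 and BLVRB were shown to change by under 1.2-fold.

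Heme and iron genes of the list gave no call among 7 tested. HMOX1, heme oxygenase 1, was 7.01, 5.84 and 5.51 CPM in vehicle and 9.75, 7.03 and 7.10 CPM at 10 µM; the groups were barely apart and the change was 0.39 ± 0.17 (interval 0.04 to 0.73). The ferritin chains, whose many pseudogenes make their counts uncertain, were FTL at 0.23 ± 0.06 (edgeR adjusted p = 0.553) and FTH1 at 0.44 ± 0.18. FTH1 reached 1268.7 CPM in the 10 µM library of replicate 2, against 1029.3 and 845.6 CPM in replicates 1 and 3. The exporters and transporters also gave no call among 6 tested. SLCO2B1, an organic anion uptake carrier, had 0.49 ± 0.12 (edgeR adjusted p = 0.370) and ABCC3, a conjugate export pump, 0.18 ± 0.05 (0.471), whereas ABCC1, another conjugate pump, was shown to change by under 1.2-fold (-0.01 ± 0.05), as were ABCC4 and ABCC5. GPX2, GSTM1, GGT1, UGT1A6 and ABCG2 had 50 reads or fewer over the 6 libraries and were not tested.

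Of 13 tested genes of the sensor and its regulators, 10 were shown to change by under 1.2-fold and 0 were called. NFE2L2 was 83.6, 74.6 and 82.1 CPM in vehicle and 81.2, 77.9 and 88.8 CPM at 10 µM (log2 0.04 ± 0.06). KEAP1 (0.04 ± 0.07), the repressor BACH1 (0.08 ± 0.06), the ligase scaffold CUL3 (-0.11 ± 0.06), the related factor NFE2L1 (-0.04 ± 0.04) and the autophagy receptor SQSTM1 (0.11 ± 0.05) were among the 10. TRIM16 and its paralog TRIM16L, chosen after their values were seen, were neither called nor shown under the margin, at 0.35 ± 0.09 (edgeR adjusted p = 0.521) and 0.32 ± 0.08 (0.266). TRIM16L was 29.7, 30.5 and 28.2 CPM in vehicle and 38.6, 39.4 and 32.6 CPM at 10 µM, without overlap. RNA levels carry no information on the amount or location of the NRF2 protein.

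**Figure D2:**
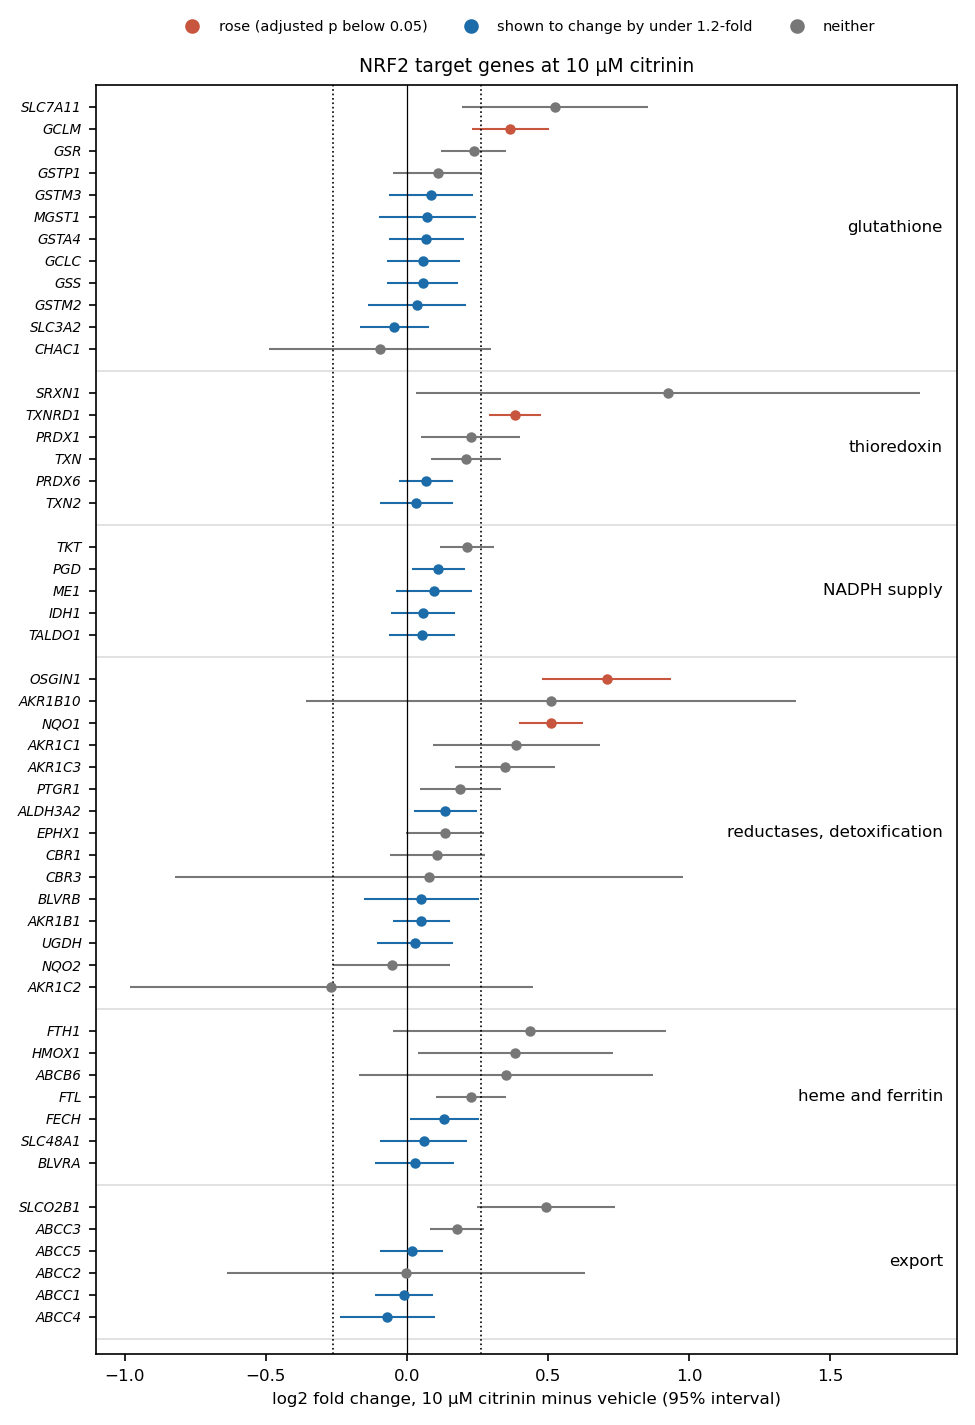
Log2 fold change at 10 µM minus vehicle with its 95% interval for tested NRF2 target genes, grouped by role; dotted lines mark the 1.2-fold margin. The genes that rose (red) lie to the right of zero, and those shown to change by under 1.2-fold (blue) lie within the margin, most of them right of zero.

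Below the threshold, the genes next in rank lay on both sides and are named here after their values were seen. PIR, encoding the iron-binding protein pirin, was 31.2, 28.3 and 22.5 CPM in vehicle and 38.8, 36.8 and 29.98 CPM at 10 µM (0.37 ± 0.08, edgeR adjusted p = 0.124). The long non-coding RNA NEAT1 had 0.23 ± 0.05 (0.126), and LUCAT1, another one, 0.67 ± 0.15 (0.173) at 4.88 CPM in vehicle. On the lower side, CEMIP, a hyaluronan-binding protein, was nearest with a log2 difference of -0.25 ± 0.05 (0.130), followed by IGFBP5, an insulin-like growth factor binding protein, with -0.21 ± 0.05 (0.168). IGFBP5 was 596, 403 and 421 CPM in vehicle and 517, 360 and 351 CPM at 10 µM, lower in 3 of 3 pairs with overlapping groups. With the 20 µM libraries left out of the model, 12 genes passed, the 6 above with TKT, PIR, NEAT1 and SEL1L3 higher and IGFBP5 and CEMIP lower. IER3, an immediate early gene, averaged 7.06 CPM in vehicle, 4.67 CPM at 10 µM and 6.56 CPM at 20 µM, and its log2 difference at 10 µM was -0.61 ± 0.16 (edgeR adjusted p = 0.471).

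For the genes that were not called, the fit also gives a bound. Of 17806 tested genes, 7886 (44.3%) were shown to change by under 1.2-fold, and these are called bounded in what follows. The share followed expression: 96.2% of the 2148 genes at 100 CPM or more, 69.7% of the 8345 genes between 10 and 100 CPM, 0.0601% (3 of 4988) between 1 and 10 CPM and 0 of 2325 below 1 CPM. The median SE of the log2 change was 0.05 in the highest of these classes and 0.48 in the lowest, so for weakly expressed genes a change of this size was not detectable at this depth. Of 10493 genes at 10 CPM or more, 5 had a fitted log2 change of 0.5 or larger in either direction. They were NQO1, OSGIN1 and the uncalled COX8A (0.51 ± 0.31), RPS29 (0.55 ± 0.40) and MT-ATP8 (0.55 ± 0.44), 3 genes with large errors. The remaining 9914 tested genes were neither called nor bounded. The bound, like the calls, rests on the block and on replicate 3: 0 genes met it in edgeR without the block or without replicate 3. With a margin of 1.1-fold 0 genes met it and with 1.5-fold 12809 did.

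**Figure D3:**
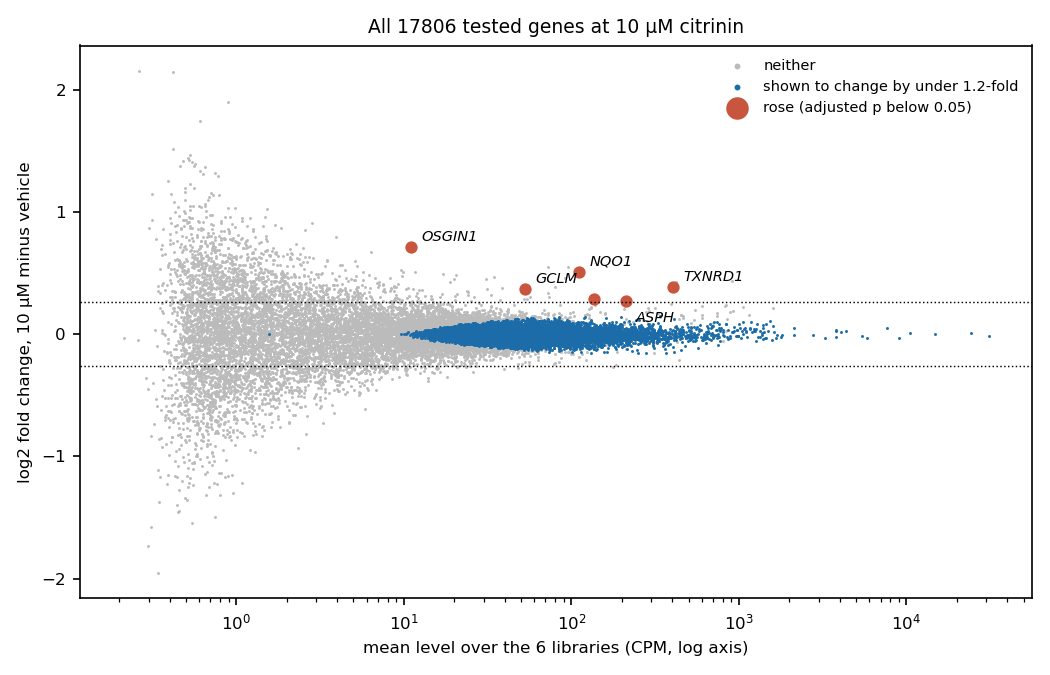
Log2 fold change at 10 µM minus vehicle against mean level over the 6 libraries (CPM, log axis) for 17806 tested genes; dotted lines mark the 1.2-fold margin. The 6 genes that rose stand above the band of 7886 genes shown to change by under 1.2-fold, and below 10 CPM the scatter widens and almost no gene is bounded.

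Outside the NRF2 targets, 34 lists of other programmes held 783 tested genes, of which 0 were called. With 0.0337% of all tested genes called, few or no calls fall in lists of this size, so their lack says little of these programmes. Of the 783, 532 (67.9%) were shown to change by under 1.2-fold. The share was 44.3% over all tested genes and 75.1% over those at 10 CPM or more. Bounded counts of the lists below are to be read beside these shares. List medians ran from -0.06 to 0.07 on the log2 scale. In edgeR without the block, 0 genes were called in any list.

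Genes of DNA damage, endoplasmic reticulum and heat stress gave no call. Of 27 p53 targets tested, 21 were bounded, with a median of -0.00. CDKN1A, the p21 cell cycle inhibitor, averaged 336 ± 155 CPM in vehicle and 343 ± 155 CPM at 10 µM (SD, n = 3 each), with replicate 1 the lowest in both groups. Its log2 change was 0.03, with an interval from -0.06 to 0.13. MDM2, the ubiquitin ligase of p53, had 0.02 (-0.09 to 0.13). Among 24 regulators of apoptosis, 15 were bounded, including the pore-forming BAX at 0.10 (-0.01 to 0.20) and the survival factor BCL2 at -0.11 (-0.21 to -0.01). Of 24 unfolded protein response genes, 20 were bounded, and HSPA5, the main chaperone of the endoplasmic reticulum, averaged 516 and 518 CPM (log2 0.01, interval -0.08 to 0.11). Of 31 integrated stress response genes, 24 were bounded. DDIT3 and ATF3, stress transcription factors of low level, were not: DDIT3 had -0.06 with an interval from -0.57 to 0.44, and ATF3 0.05 from -0.25 to 0.36. Heat shock genes gave 16 of 21, with HSP90AB1 at -0.01 ± 0.04. HSPA1A, the inducible heat shock protein, was neither called nor bounded, at 15.5, 16.8 and 22.5 CPM in vehicle and 18.9, 21.9 and 25.4 CPM at 10 µM (0.28, interval 0.09 to 0.47).

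Protein turnover and other defence genes gave no call either. Proteasome subunits were bounded in 27 of 30 (median 0.05) and autophagy and lysosome genes in 24 of 28. Higher in 3 of 3 pairs were 10 of the 30 proteasome genes (33.3%), 8 of the 28 autophagy and lysosome genes (28.6%) and 7 of the 21 heat shock genes (33.3%), beside 11.9% of all tested genes. Unrelated lists had like shares, such as 3 of 8 epithelial markers (37.5%) and 7 of 29 interferon-stimulated genes (24.1%), while ribosomal proteins had 1 of 38 (2.63%). The proteasome median was -0.01, 0.11 and 0.03 in pairs 1, 2 and 3. These shares were not tested. Antioxidant enzymes outside the NRF2 list gave 13 of 19, among them the mitochondrial superoxide dismutase SOD2 (0.08 ± 0.05) and PRDX5 (0.04 ± 0.06). The metallothionein MT2A, which responds to metals, was 115 ± 46.4 CPM in vehicle and 117 ± 44.9 CPM at 10 µM (log2 0.03, interval -0.07 to 0.13). CYP1A1, the marker of aryl hydrocarbon receptor activity, averaged 1.79 and 2.12 CPM, and its interval of -0.35 to 0.86 left its change undetermined. The receptor gene AHR had 2 reads over the 6 libraries and was not tested, nor were AHRR (17 reads) and CYP1A2 (39 reads).

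Neuronal and neuroblast genes gave no call at 10 µM. At 20 µM, 11 of the 22 tested genes of the sympathetic identity list fell (50%, against 1.36% of all tested genes). Of 22 tested identity genes, 17 were bounded, with a median of -0.04. Their small differences leaned to the lower side: 3 of the 22 had a positive difference (49.1% of all tested genes had), 11 were lower in 3 of 3 pairs (50%, against 13.6%) and 0 were higher in 3 of 3, while 1 was lower at an unadjusted p below 0.05. These counts describe a list set with earlier results of these libraries known, and the 10 µM and vehicle groups overlapped for each of the 22. RET, the receptor of glial-derived neurotrophic factors, was 203, 532 and 237 CPM in vehicle and 190, 463 and 231 CPM at 10 µM. RET was lower in 3 of 3 pairs, by -0.11 (interval -0.24 to 0.02), and was bounded; at 20 µM the log2 difference from vehicle was -0.58. ALK, another receptor kinase of neuroblastoma, had -0.10 at 10 µM and -0.45 at 20 µM, and STMN2, a microtubule regulator of growth cones, -0.05 and -0.31. The identity factor HAND2 (-0.03 ± 0.04) and DBH, the dopamine beta-hydroxylase (-0.02 ± 0.05), were bounded as well. GAP43, the growth-associated protein of axons, was not, at -0.09 with an interval from -0.26 to 0.09. Axon guidance and neurite outgrowth genes were bounded in 25 of 35, ion channels in 12 of 21, synaptic vesicle genes in 18 of 28 and neurotransmitter receptors in 14 of 29. Lower in 3 of 3 pairs were 10 of the 35 axon genes (28.6%), 7 of the 21 ion channels (33.3%), 10 of the 28 synaptic genes (35.7%) and 6 of the 29 receptors (20.7%), beside 13.6% of all tested genes. Such shares were not particular to neuronal lists: immediate early genes had 5 of 19 (26.3%) and mesenchymal markers 7 of 34 (20.6%). Some other lists had less, such as 2 of 30 proteasome genes (6.67%). Genes of a list share the same 3 pairs, and these shares were not tested. Tubulins were bounded in 5 of 15, with TUBB at 0.02 ± 0.08 and TUBA1A at -0.06 ± 0.14; tubulin paralogs share sequence and their counts are uncertain.

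Mitosis genes had the highest bounded share of the lists drawn here, 36 of 38, and bounded too were 30 of 39 DNA replication genes and 21 of 25 repair genes. MKI67, the proliferation marker, was 200, 270 and 211 CPM in vehicle and 208, 241 and 201 CPM at 10 µM (log2 -0.06, interval -0.16 to 0.04), and the mitotic cyclin CCNB1 averaged 94.8 and 94.9 CPM. In bulk libraries fewer cells of a kind and less RNA per cell cannot be told apart, and cell number is not measured by CPM.

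Metabolic lists gave no call. Glycolysis and hypoxia genes were bounded in 24 of 30, cholesterol and fatty acid synthesis in 25 of 28, mitochondrially encoded subunits in 9 of 13, nuclear-encoded respiratory subunits in 25 of 43 and ribosomal proteins in 29 of 38. MT-CO1, the most abundant mitochondrial message of its list, had -0.02 ± 0.05, GAPDH 0.08 ± 0.05 and FASN, the fatty acid synthase, -0.06 ± 0.05. For ribosomal and nuclear-encoded respiratory genes the median in pair 2 stood apart from pairs 1 and 3, as given above.

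Inflammatory genes gave no call, and some differed widely between replicate numbers. CXCL8, the neutrophil chemokine interleukin 8, was 77.5, 282 and 394 CPM in vehicle and 81.3, 261 and 401 CPM at 10 µM, each library at 10 µM close to the vehicle library of its number. The log2 change was -0.01 (interval -0.11 to 0.09), and at 20 µM CXCL8 was 0.36 above vehicle. CCL2, a monocyte chemokine, averaged 728 and 726 CPM. Of 19 inflammatory genes tested, 10 were bounded, of 29 interferon-stimulated genes 7 and of 19 immediate early genes 8. Of these lists 15, 11 and 12 genes averaged 10 CPM or more.

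Markers of other cell states gave no call. The 34 mesenchymal, substrate-adherent markers summed to 7749 to 10686 CPM in vehicle and 7917 to 10913 CPM at 10 µM, with 25 bounded. Glial markers summed to 131 to 169 CPM and 127 to 158 CPM, with FOXD3 and CDH19 at 0 reads in all 6 libraries. Most of the glial sum was PMP22, which averaged 118 CPM in vehicle and 112 CPM at 10 µM. SOX10 (35 reads over the 6 libraries), GFAP (42) and AQP4 (7) were too low to test. Epithelial markers summed to 48.2 to 64.6 CPM and 52.2 to 64.3 CPM, with KRT5 and ESRP1 at 0. KRT18 alone averaged 32.7 CPM in vehicle and 31.9 CPM at 10 µM. The ranges overlapped for each of these sums.

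**Figure D4:**
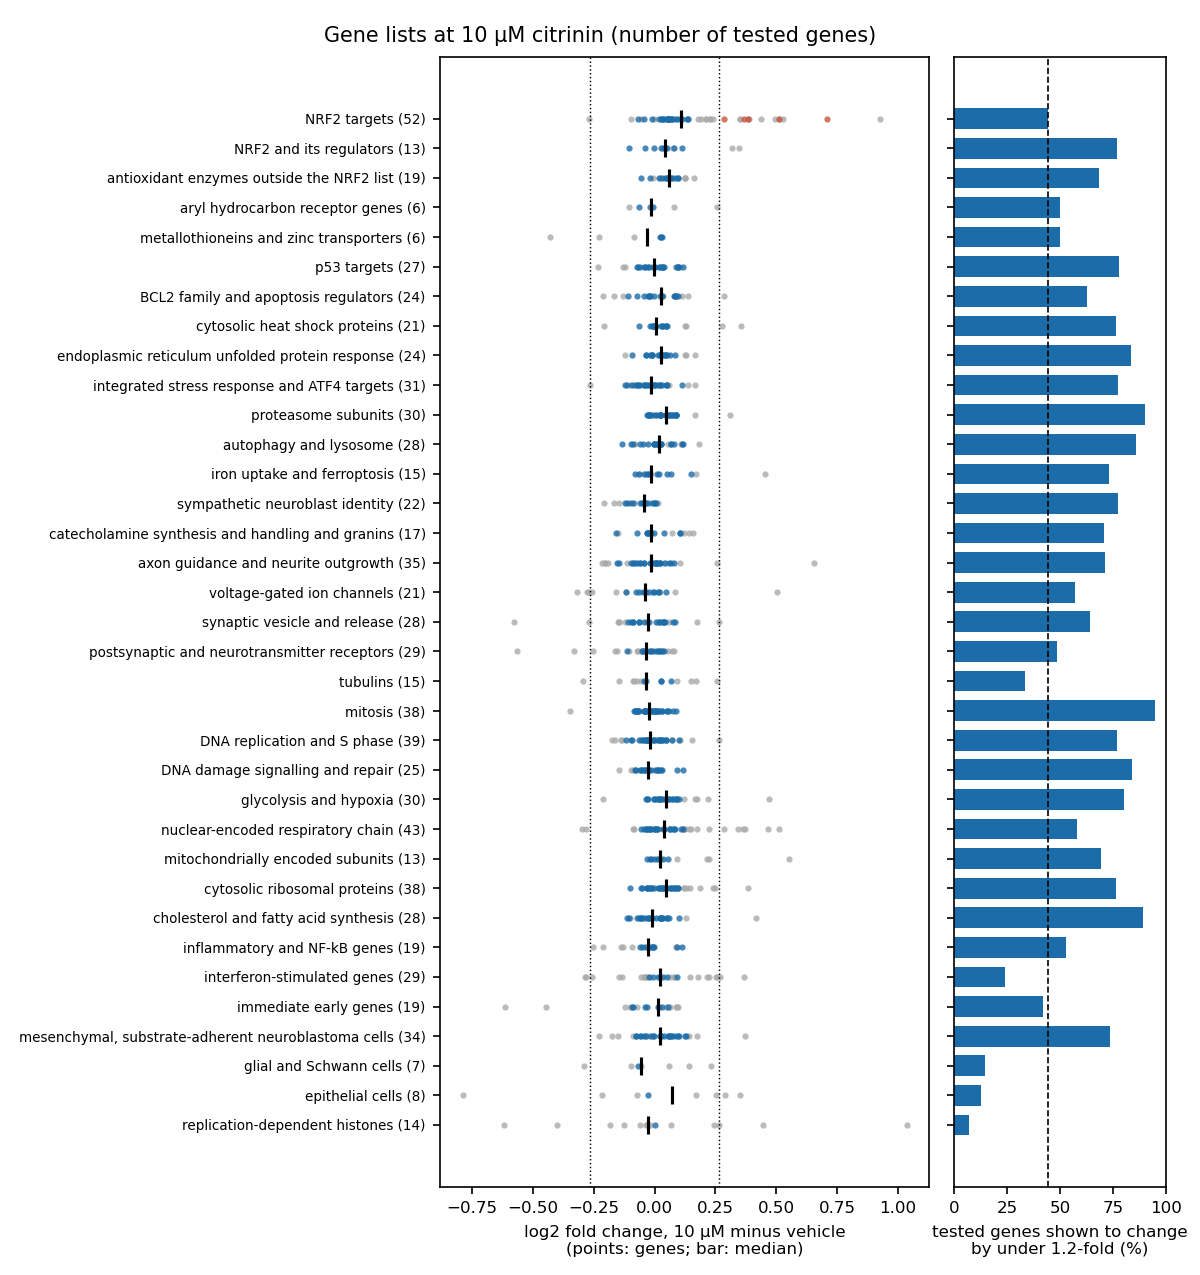
Left, log2 fold change at 10 µM minus vehicle of every tested gene (points) and the median (black bar) for each gene list, with dotted lines at the 1.2-fold margin; right, the percentage of tested genes shown to change by under 1.2-fold, with a dashed line at the 44.3% of all tested genes. Red points, the genes that rose, occur in the NRF2 target list alone among the lists drawn, and the shortest bars belong to the histones and to the epithelial and glial markers.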

How the data were processed

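The authors deposited, per library, STAR's raw read counts per gene; the count of both strands together was used, because reads fell on both strands equally (ratio 1.007 to 1.020). Per the submitters' processing notes, FastQC, cutadapt, STAR, edgeR and GRCh38 were used; no versions are named there. Of all reads, 76.6% to 78.0% were assigned to genes. Unmapped (2.86% to 3.61%), multimapping (2.22% to 2.61%), no-feature (7.21% to 7.98%) and ambiguous reads (9.51% to 9.95%) stayed out of library sizes. A deposited table of log2 values was not used here.

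Of 61487 identifiers, 42150 had a symbol, and coordinates came from GENCODE 29 (GRCh38). edgeR 4.0.16 (R 4.3.3, limma 3.58.1, DESeq2 1.42.0) was fitted to all 9 libraries with filterByExpr, TMM (factors 0.990 to 1.013), robust quasi-likelihood and terms for group and replicate number. The numbers, from the sample titles, were taken to pair the samples. Same-numbered libraries had correlated deviations from group means (r 0.483 to 0.685 in 3 pairs of 10 µM and vehicle). Differently numbered ones had r from -0.503 to 0.068. Deviations within a group cancel out, which lowers r between different numbers, so part of this contrast is built in. The biological coefficient of variation was 0.0552 with the block and 0.195 without. Intervals are 95%. The scripts were tested on simulated data.

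The gene lists and the comparison were chosen with earlier results of these data known. Genes named by rule were the 12 strongest calls per direction at 2 CPM or more, called NRF2 targets, a list of single genes, up to 4 called members of each other list, or the 2 most abundant members where a list had none, and the 3 genes of 100 CPM or more with the smallest SE. Others are said to be chosen after their values were seen. Some genes that the rule names, 1 of them among the calls, are not reported here. Alternatives changed the block, libraries, scaling, filter, tool, strand counting and margin, and left out libraries in turn.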

Additional observations from a re-analysis of the deposited data

How the results depend on the processing

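The 6 calls became 0 with no replicate block in edgeR, DESeq2 and limma-voom (the last 2 chosen after seeing the data), 12 with the 6 libraries of the 2 groups alone, 23 with no filter on low counts and 3 with no robust estimation. The 5 calls in the NRF2 target list became 0 with no replicate block in each tool, 11 with no filter and 3 with no robust estimation. The 7886 genes shown to change by under 1.2-fold became 0 with no replicate block in edgeR and in limma-voom, 24 in DESeq2 with no replicate block, 0 at a margin of 1.1-fold and 12809 at 1.5-fold. Leaving out 1 library, or all libraries of 1 number, gave 0 to 16 calls, 0 to 7 in the NRF2 list and 0 to 8382 genes shown under the margin. The 0 came without replicate 3, and 2 calls (NQO1 and TXNRD1) were left without vehicle replicate 1, 2 or 3 or 10 µM replicate 3, 3 without 20 µM replicate 3 and 16 without 20 µM replicate 1; the cause was not tested. The NRF2 list's median stayed between 0.09 and 0.18 in every setting. Of the values of named genes under the alternatives, 0 changed sign in a call, 51 lost and 6 gained a call, 33 moved by more than the replicate spread and 2323 kept their side. Of genes between 1 and 10 CPM, 3 of 4988 met the 1.2-fold margin, and 0 of 2325 below 1 CPM.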
